A study of Mus musculus with 9 samples.

Results

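The comparison described here set the cumulus cells of Bmp15-/- mice against those of wildtype mice. It took all arrays labelled with either genotype, 3 Bmp15-/- and 3 wildtype of the 9 arrays of the series, and every gene that could be tested. Of 18194 genes with a probe set naming that gene alone, 13447 passed a filter on dim values and were tested, each through its probe set with the highest mean, and the other 4747 were set aside as dim. The series measured gene expression on Affymetrix mouse arrays that hold 45101 probe sets. Its remaining 3 arrays came from mice that lacked BMP15 and had lost 1 of their 2 copies of Gdf9 (Bmp15-/-Gdf9+/-, labelled DM). Below they are set beside those of Bmp15-/-. They also entered the filter on dim values, the choice of probe set and the error estimate of the test. All 3 genotypes were kept on a B6/129 background and all donors were females 4 to 5 months old. Each received 5 IU of equine chorionic gonadotropin, a hormone that drives follicle growth, for 48 h. Every sample pooled the cumulus cells of 75 to 100 cumulus-oocyte complexes from the large antral follicles of 3 to 4 mice, so a replicate is a pool of animals. The complexes were handled in 5 µM milrinone, which blocks the oocyte's phosphodiesterase and holds the oocyte in meiotic arrest, and 10 ng of RNA per sample was amplified in successive rounds before hybridisation.

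Cumulus cells are the granulosa cells closest to the oocyte of an antral follicle and feed it through fine projections and gap junctions. BMP15 and GDF9 are secreted by the oocyte and belong to the transforming growth factor beta superfamily. BMP15 signals mainly through BMP receptors and the transcription factors SMAD1 and SMAD5, whose classic targets are the ID genes and inhibitory SMADs, while GDF9 signals mainly through SMAD2 and SMAD3. Oocyte factors are known to promote glycolysis, cholesterol synthesis and amino acid uptake in cumulus cells and to keep them from taking on features of the granulosa cells of the follicle wall.

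Correlations over all probe sets were at least 0.988 within a genotype. Values are given in log2 expression units throughout. The interquartile range of an array's values was 3.37 to 3.42 in wildtype and 3.20 to 3.29 in Bmp15-/-, so the spread of values did not overlap between the genotypes. The defining granulosa transcripts were bright in both groups, with an array median of 10.4 to 10.6 for 13 tested markers in wildtype and 10.3 to 10.4 in Bmp15-/-, and 0 of the 13 passed the test. Bmp15 itself, an oocyte transcript, stood at 5.10, 9.58 and 8.41 on the wildtype arrays, in replicate order, and at 5.10, 5.08 and 5.10 on those of Bmp15-/-. It was thus high on 2 wildtype arrays and at the mutant level on wildtype array 1. No source used here says whether its probe sets lie in the deleted part of the gene. The median of 17 oocyte markers was 5.36, 6.44 and 5.74 in wildtype and 5.40, 6.20 and 5.21 in Bmp15-/-, so array 2 of each genotype carried the most oocyte RNA. The Gapdh 3' minus 5' difference, a sign of RNA quality and amplification, was 0.52 to 0.59 on the wildtype arrays and 0.66 to 0.73 on the Bmp15-/- arrays and did not overlap. The part of these differences and of the oocyte RNA in the results below was not tested. Values without array 2 of both genotypes, given in places, rest on 2 arrays a group, and calls over all genes then fell to 166.

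In Bmp15-/- cumulus cells 442 genes rose and 777 fell, which is 9.07% of the genes tested, 3.29% higher and 5.78% lower (limma over all 9 arrays, Benjamini-Hochberg adjusted p under 0.05). The 3 Bmp15-/- arrays lay wholly above or below the 3 wildtype arrays for 4947 genes, 36.8% of those tested. Most changes were modest, with a median of 1.61-fold among the rises and 1.55-fold among the falls. Changes over 2-fold numbered 108 up and 136 down, and those over 4-fold 14 up and 10 down. Lower calls made up 63.7% of the total as the values were deposited but 46.8% after quantile normalization, with 590 genes higher and 520 lower. The count moved with single arrays, to 593, 464 and 545 genes without wildtype arrays 1, 2 and 3 and to 855, 613 and 445 without Bmp15-/- arrays 1, 2 and 3. A set of 350 genes, 118 higher and 232 lower, did not overlap between the groups and stayed called whichever of the 6 arrays was left out. These are called stable, and each changed gene named below is stable unless a left-out array is named beside it. Of all called genes 594 had another tested probe set. For 167 such a probe set changed with the opposite sign, and for 2 it was itself called. This is stated below for some of the genes only.

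**Figure D1:**
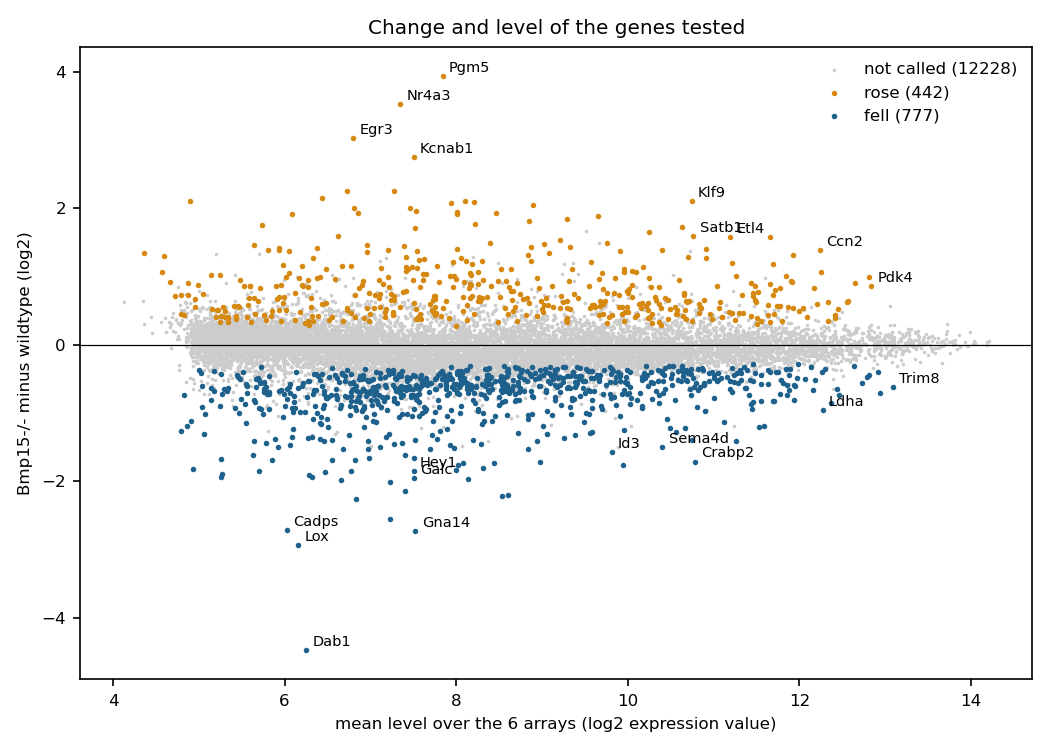
Each point is 1 of the 13447 genes tested, with its mean level over the 6 arrays (log2 expression value) on the x axis and the Bmp15-/- minus wildtype difference (log2) on the y axis. Orange points are the 442 genes that rose, blue points the 777 that fell and grey points the rest, and the calls lie on both sides of 0 over the whole range of levels.

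Among the targets of BMP signalling Id3, Hey1 and Smad7 fell and were stable. Id3, an inhibitor of basic helix-loop-helix factors and a classic BMP target, had values of 10.55, 10.60 and 10.65 in wildtype and 9.00, 9.08 and 9.01 in Bmp15-/-. The groups did not overlap and the spread within each was small, and Id3 fell 2.97-fold (adjusted p = 0.000153). Hey1, a transcriptional repressor that answers to both BMP and Notch, had values of 8.26, 8.47 and 8.55 against 6.48, 6.67 and 6.59 and fell 3.61-fold (adjusted p = 0.000268). Smad7, which shuts off the receptors of the superfamily, had values of 11.54, 11.63 and 11.87 against 10.58, 10.47 and 10.60. It fell 2.19-fold and its groups did not overlap (adjusted p = 0.00735). Of the 15 tested BMP and SMAD1/5 targets 5 fell (33.3%), 1 rose (6.67%) and 9 missed the threshold, where 5.78% of all genes fell and 3.29% rose. The median change was -0.42 against -0.04 over all genes tested. The falls numbered 3 without any 1 of the 6 arrays. The related repressors Heyl and Hey2 fell 1.64-fold and 1.37-fold, and Tob1, an antiproliferative protein, rose 1.89-fold. All 3 were sensitive to single arrays, with adjusted p up to 0.128, 0.145 and 0.132, each without Bmp15-/- array 3. The other ID genes did not pass. Id1 had values of 9.35, 8.90 and 9.46 in wildtype against 8.60, 7.67 and 8.30 (adjusted p = 0.0923). Id2 had 11.96, 11.60 and 11.94 against 10.22, 10.48 and 11.22 (adjusted p = 0.0709), so both lay lower on every Bmp15-/- array but scattered there. Id4 went the other way, with 6.78, 5.20 and 6.42 against 7.62, 6.78 and 6.78, and its groups touched (adjusted p = 0.17).

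**Figure D2:**
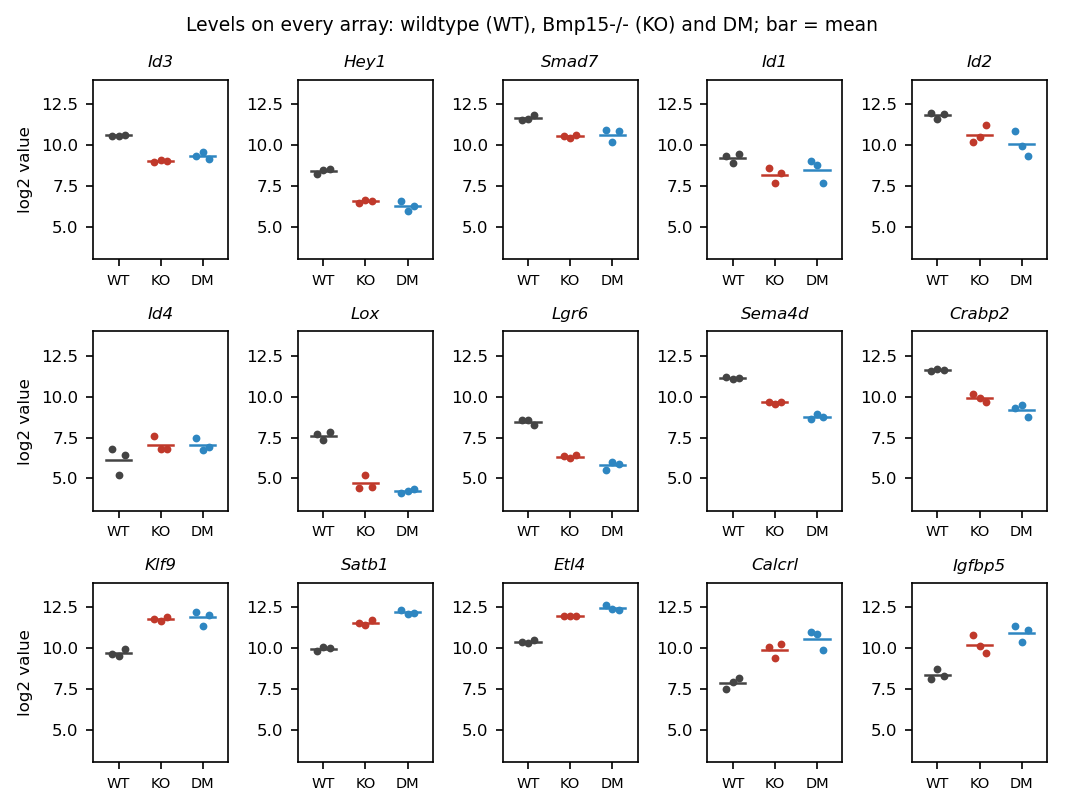
The log2 expression value on every array (points) and the mean (bar) are plotted for 15 genes in wildtype (WT, n = 3), Bmp15-/- (KO, n = 3) and DM (n = 3). Id3, Hey1 and Smad7 lay lower on all Bmp15-/- arrays, at 9.00 to 9.08, 6.48 to 6.67 and 10.47 to 10.60, while Id1 and Id2 scattered more.

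Apart from Smad7, counted above with the BMP targets, calls among ligands, receptors and SMADs of the superfamily lay in the receptors. With limma 0 of 12 tested ligands passed, nor did any of the 21 other SMADs, antagonists and modulators. Of the 14 receptors 3 passed (21.4%, where 9.07% of all genes were called). Bmp2, a ligand that granulosa cells themselves can make, had the largest difference of the ligands apart from Bmp15, with 5.18, 5.13 and 4.81 in wildtype and 6.12, 5.76 and 7.23 in Bmp15-/-, and did not pass (adjusted p = 0.0513). The activin receptor Acvr1b fell 1.55-fold, with adjusted p up to 0.0509 without wildtype array 3. Tgfbr3, the coreceptor betaglycan that also binds inhibin, rose 1.42-fold, with adjusted p up to 0.128 without Bmp15-/- array 3. Acvrl1 fell 1.32-fold, with adjusted p up to 0.154 without that array. The BMP15 receptor pair was steady in level. Bmpr2 had 13.29, 13.29 and 13.37 in wildtype and 13.37, 13.41 and 13.38 in Bmp15-/-, and Bmpr1b had 11.85, 11.80 and 11.92 and then 11.92, 11.90 and 11.99. Neither passed (adjusted p = 0.616 and 0.54), and their differences of 0.07 ± 0.08 and 0.08 ± 0.08 (log2, SE) were within their errors. The abundant granulosa products inhibin alpha (Inha, difference -0.01 ± 0.08) and follistatin (Fst, 0.00 ± 0.08) did not pass either. Among 10 targets of the activin and TGF-beta branch 1 rose (10%, where 3.29% of all genes rose). It was Ccn2, a matricellular growth factor also known as CTGF. It had 11.62, 11.91 and 11.13 in wildtype and 12.95, 12.79 and 13.07 in Bmp15-/-, did not overlap and rose 2.61-fold (adjusted p = 0.00276). Of 14 genes of the Notch pathway 4 fell (28.6%, where 5.78% of all genes fell). Of these, Hey1, Heyl and Hey2 are also among the BMP targets. The Notch ligand Jag2 fell 1.31-fold, with adjusted p up to 0.081 without wildtype array 2. The Notch falls numbered 1 without any single wildtype array and 2, 1 and 1 without Bmp15-/- arrays 1, 2 and 3.

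The 25 largest stable falls ranged from 3.34-fold to 7.64-fold. Lox, lysyl oxidase, which crosslinks collagen and elastin, had values of 7.73, 7.33 and 7.81 in wildtype and 4.38, 5.19 and 4.49 in Bmp15-/- and fell 7.64-fold (adjusted p = 0.000153). On 2 of the 3 Bmp15-/- arrays it lay under the 40th percentile, so the size of its fold rests on dim values. Gna14, a G protein alpha subunit that couples receptors to phospholipase C, had 8.79, 9.12 and 8.77 against 6.16, 6.25 and 6.06. It fell 6.66-fold with the smallest p of all genes (adjusted p = 5.95e-05). Pebp4, a phosphatidylethanolamine-binding protein, went from 8.08, 8.10 and 7.72 to 5.85, 5.74 and 5.52, a fall of 4.79-fold. Lgr6, an R-spondin receptor that strengthens WNT signalling, had 8.56, 8.59 and 8.28 against 6.38, 6.22 and 6.40 and fell 4.41-fold (adjusted p = 0.000137). None of these groups overlapped. Other large falls had varied roles. The sulfatase Arsk fell 4.02-fold, the Golgi mannosidase Man1c1 3.93-fold, the lysosomal galactosylceramidase Galc 3.89-fold and the organic anion exporter Abcc2 3.84-fold. The secreted hormone stanniocalcin 1 (Stc1) fell 3.77-fold, the planar polarity protein Prickle2 3.66-fold, the antigen presentation regulator Nlrc5 3.56-fold and the nociceptin receptor Oprl1 3.55-fold. Alas2, the erythroid first enzyme of heme synthesis, fell 3.95-fold. Oprl1 lay under the 40th percentile on all 3 Bmp15-/- arrays. Stable falls named for their high mean level included the ubiquitin ligase Trim8 (1.53-fold), the transcription factors Mycn (2.30-fold) and Stat5a (1.51-fold), and Rasgef1b (1.77-fold). Mycn, a MYC family member, had 11.99, 12.22 and 12.33 in wildtype and 10.98, 10.89 and 11.07 in Bmp15-/-.

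The 25 largest stable rises ranged from 2.90-fold to 15.3-fold. Pgm5, a phosphoglucomutase relative located at cell adhesions, had values of 6.54, 5.61 and 5.47 in wildtype and 10.34, 9.55 and 9.55 in Bmp15-/-. No other stable gene rose as far. Zbtb16 (PLZF), a zinc finger repressor induced by steroid hormones in many tissues, had 6.87, 7.27 and 7.01 against 9.38, 9.14 and 8.95 and rose 4.31-fold (adjusted p = 0.000304). Klf9, a Krüppel-like factor that responds to steroid and thyroid hormones, had 9.64, 9.50 and 9.94 against 11.81, 11.66 and 11.90 and rose 4.28-fold (adjusted p = 0.000675). Prdm1 (BLIMP1), a repressor of differentiation choices, had 5.87, 5.93 and 5.87 against 7.67, 7.95 and 7.84 and rose 3.82-fold (adjusted p = 0.000137). The groups were separate for all of these. The repressor Bcl6 rose 3.15-fold, the MYC antagonist Mxd1 3.75-fold, the chromatin organiser Satb1 3.01-fold and the HMG box factor Tox 3.99-fold. Satb1 lay between 9.85 and 10.06 in wildtype and had 11.53, 11.41 and 11.75 in Bmp15-/-. For Mxd1 and Etl4 another tested probe set had a change of the opposite sign that was not called. Calcrl, the receptor that binds adrenomedullin and CGRP, had 7.49, 7.95 and 8.16 against 10.06, 9.42 and 10.27 and rose 4.15-fold (adjusted p = 0.00634). Igfbp5, which binds insulin-like growth factors and is known from granulosa cells of atretic follicles, rose 3.58-fold, from 8.13, 8.73 and 8.27 to 10.83, 10.14 and 9.68. The glutathione transferase Gsta4 rose 3.29-fold, the death-associated kinase Dapk1 3.03-fold and the inhibitor of the mTOR kinase Ddit4l 3.26-fold. Etl4, whose function is little known, had 10.36, 10.34 and 10.51 in wildtype and at least 11.96 on each Bmp15-/- array, rose 2.98-fold and had 1 of the smallest p-values (adjusted p = 0.000108). Stable rises named for their high mean level included Pdk4 (1.82-fold), a kinase that switches off pyruvate dehydrogenase, the selenium carrier Selenop (2.00-fold) and the mitochondrial carrier Slc25a24 (1.55-fold). Pdk4 had 12.51, 12.29 and 12.41 in wildtype and 13.25, 13.22 and 13.34 in Bmp15-/- (adjusted p = 0.000796).

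Genes that respond to hypoxia-inducible factor (HIF), the transcription factor that shifts cells to anaerobic metabolism, formed the list with the highest share of falls. Of 20 tested, 12 fell and 0 rose, where 5.78% of all genes tested fell. The remaining 8 missed the threshold, and the median over all 20 was -0.66. The array medians relative to the wildtype mean were -0.04, 0.04 and -0.02 on the wildtype arrays and -0.63, -0.62 and -0.67 on the Bmp15-/- arrays, so every mutant array carried the shift. The falls numbered 12, 8 and 10 without wildtype arrays 1, 2 and 3, and 10, 10 and 9 without Bmp15-/- arrays 1, 2 and 3. Without array 2 of both genotypes 2 remained called, with a median of -0.62. Hif1a itself, which encodes the regulated subunit, had 12.80, 12.89 and 12.90 in wildtype and 12.83, 12.98 and 12.90 in Bmp15-/- and did not pass (adjusted p = 0.76). Promoter sequence of 250 bases before the start is shown for 2 of these genes, Bnip3 and Pdk1, and for Ldha of the glycolysis list, because members of both lists moved together. The sequences are from RefSeq on GRCm38.p6, printed 5′ to 3′ on the gene's strand, with the letters ACGTG or GCGTG, the core that HIF binds, in capitals on either strand.
Bnip3, chr7:138909507-138909756, minus strand: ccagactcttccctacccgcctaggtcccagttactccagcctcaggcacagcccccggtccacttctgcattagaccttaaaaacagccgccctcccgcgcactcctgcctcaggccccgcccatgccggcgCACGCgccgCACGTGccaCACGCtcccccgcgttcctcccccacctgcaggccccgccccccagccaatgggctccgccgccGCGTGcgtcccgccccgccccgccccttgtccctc
Ldha, chr7:46845554-46845803, plus strand: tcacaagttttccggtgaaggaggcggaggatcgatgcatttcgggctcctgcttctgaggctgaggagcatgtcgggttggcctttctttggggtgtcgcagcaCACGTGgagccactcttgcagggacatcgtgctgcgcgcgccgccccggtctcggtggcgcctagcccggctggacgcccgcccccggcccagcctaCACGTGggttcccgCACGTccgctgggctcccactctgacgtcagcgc
Pdk1, chr2:71872974-71873223, plus strand: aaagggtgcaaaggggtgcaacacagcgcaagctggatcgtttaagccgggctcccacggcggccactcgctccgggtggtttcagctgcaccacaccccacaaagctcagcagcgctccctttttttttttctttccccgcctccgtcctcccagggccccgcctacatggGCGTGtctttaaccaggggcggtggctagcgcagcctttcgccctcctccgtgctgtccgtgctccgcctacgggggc
There were 5 matches in the Bnip3 window, 5 in the Ldha window shown and 1 in the Pdk1 window shown, where a CACGTG counts as 2 because it holds the core on both strands. Ldha and Pdk1 each have another start listed, whose windows, not shown, held 1 and 0 matches. In the shares that follow, a gene counts if any of its windows holds a match. Either core was found in such windows of 59.1% of the 10844 tested genes that have one, of 15 of 17 tested HIF targets and of 9 of the 11 that fell and have one. The cores were not particular to lists that fell. They were found in 20 of 26 tested immediate early genes, described below, and in 8 of the 10 that rose. Of the tested BMP and SMAD1/5 targets with a window 7 of 9 held either core. A match is a description of the letters and does not show binding.

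The HIF targets that fell have different roles. Cox4i2, a respiratory chain subunit made under low oxygen, had 9.11, 9.40 and 9.14 in wildtype and 7.45, 7.45 and 7.31 in Bmp15-/- and fell 3.51-fold (adjusted p = 0.000441). It was the only 1 of 74 tested respiratory chain and ATP synthase genes to pass. The carbonic anhydrase Car12, which handles acid made by glycolysis, had 8.43, 8.16 and 8.06 against 6.35, 6.52 and 6.92 and fell 3.07-fold. The prolyl hydroxylases of collagen P4ha2 and P4ha1 fell 2.50-fold and 1.64-fold. Pdk1, which like Pdk4 restrains pyruvate dehydrogenase, had 11.64, 11.53 and 11.50 against 10.91, 10.84 and 10.85 and fell 1.61-fold, opposite to Pdk4. Bnip3, a mitochondrial protein of mitophagy and cell death, had 11.87, 11.90 and 11.84 against 11.02, 11.14 and 10.83 and fell 1.83-fold (adjusted p = 0.00884). Ero1a, an oxidase of the endoplasmic reticulum, fell 1.59-fold. For all of these the groups were separate. Adm, the peptide adrenomedullin, also a HIF target, stood apart with 7.63, 7.71 and 8.10 in wildtype and 8.86, 8.20 and 8.89 in Bmp15-/-, and did not pass (adjusted p = 0.293).

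**Figure D3:**
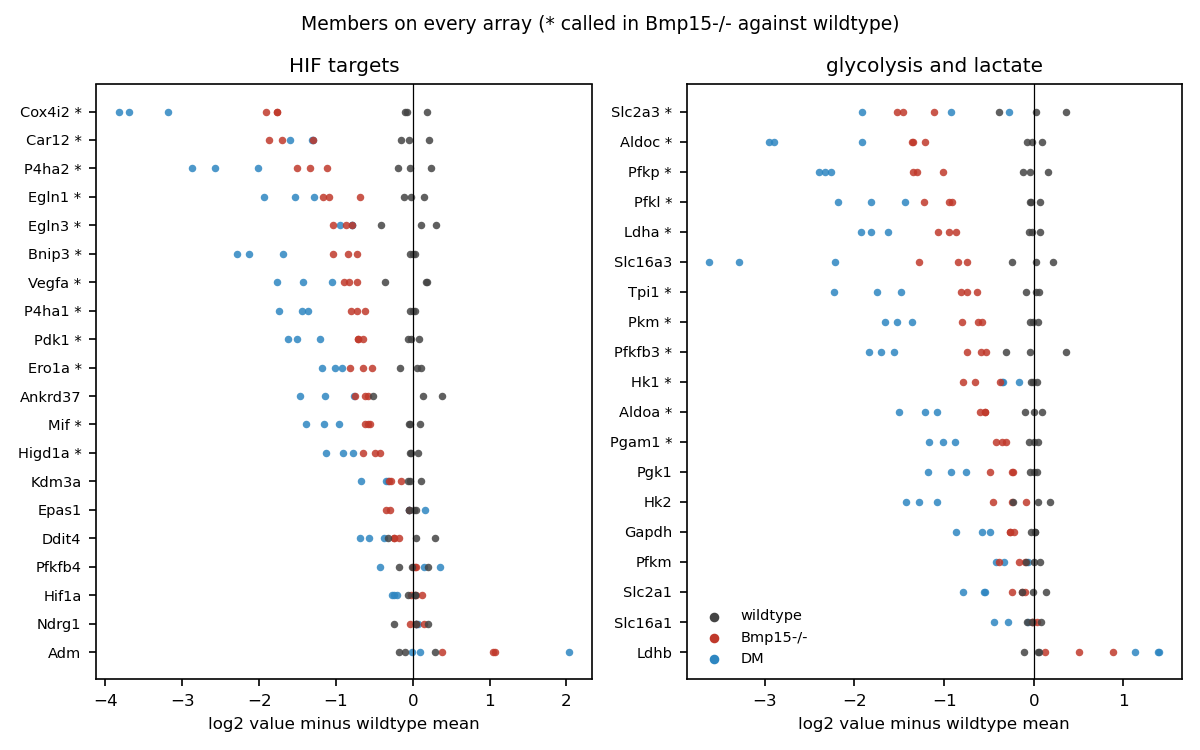
Each row is a tested gene of the HIF target list (left) or of the glycolysis and lactate list (right), and points give its log2 value on each array minus the mean of the 3 wildtype arrays, in wildtype (grey), Bmp15-/- (red) and DM (blue). Asterisks mark the 12 and 11 genes that fell in Bmp15-/-, and the median of the list in Bmp15-/- is -0.66 for HIF targets and -0.61 for glycolysis.

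Among 19 genes of glycolysis and lactate there were 11 falls (57.9%, where 5.78% of all genes fell), 5 of them stable, and 0 rises. The median was -0.61, and 8 genes missed the threshold. The stable falls were those of phosphofructokinase (Pfkp 2.33-fold, Pfkl 2.03-fold), aldolase (Aldoc 2.47-fold), pyruvate kinase (Pkm 1.59-fold) and lactate dehydrogenase A (Ldha 1.95-fold). Pfkp had 11.23, 11.43 and 11.16 in wildtype and 9.93, 10.27 and 9.97 in Bmp15-/-, and Ldha had 12.74, 12.82 and 12.70 against 11.81, 11.88 and 11.68. The glucose transporter Slc2a3 fell 2.58-fold and hexokinase 1 (Hk1) 1.52-fold, where Slc2a3 was named after its values were seen. Slc2a3 lost its call without any 1 of the 6 arrays, and the adjusted p of Hk1 went up to 0.053 without wildtype array 3. The related Slc2a1 and hexokinase 2 (Hk2) did not pass, with differences of -0.15 ± 0.10 and -0.26 ± 0.14 (log2, SE). Gapdh, also in the list, did not pass with a difference of -0.25 ± 0.10. The falls numbered 8, 5 and 5 without wildtype arrays 1, 2 and 3, 7, 6 and 6 without Bmp15-/- arrays 1, 2 and 3, and 2 without array 2 of both, with a median of -0.59. Of the tested glycolysis genes with a promoter window 17 of 18 held a HIF core, and so did 9 of the 10 that fell. Over all tested genes with a window the share was 59.1%. Of 21 pyruvate dehydrogenase and TCA cycle genes 2 rose and 0 fell, 9.52% called against 9.07% over all genes, with a median of -0.03. The rises were those of the dehydrogenase subunits Pdha1 (1.45-fold, adjusted p up to 0.112 without wildtype array 2) and Pdhb (1.25-fold, up to 0.154 without Bmp15-/- array 3). Another tested probe set of Pdhb had a change of -0.22, of the opposite sign and not called.

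Cholesterol and fatty acid synthesis held falls and no rises. Of 17 cholesterol synthesis genes 7 fell (41.2%, where 5.78% of all genes fell) and 0 rose. The median was -0.47, with array medians of -0.46, -0.46 and -0.43 in Bmp15-/-. The study itself selected this pathway from these samples, so its direction here is not independent evidence. Mvd, which makes isopentenyl diphosphate, was the stable member, with 7.76, 8.05 and 8.00 in wildtype and 6.98, 6.89 and 6.87 in Bmp15-/- and a fall of 2.03-fold (adjusted p = 0.00963). The falls numbered 4, 2 and 3 without wildtype arrays 1, 2 and 3, 4, 3 and 1 without Bmp15-/- arrays 1, 2 and 3, and 0 without array 2 of both, with a median of -0.41. The genes just short of the threshold included Dhcr7, the last enzyme of the pathway, with 12.58, 12.79 and 12.66 against 12.30, 12.30 and 12.30 (adjusted p = 0.0542). Vldlr, a lipoprotein receptor, lay between 11.76 and 12.13 in wildtype, had 10.50, 10.69 and 10.46 in Bmp15-/- and fell 2.66-fold (adjusted p = 0.00127). Mylip, the ubiquitin ligase that degrades lipoprotein receptors, rose 2.59-fold, with adjusted p up to 0.103 without wildtype array 2. Of 17 fatty acid genes 5 fell (29.4%, where 5.78% of all genes fell), among them the desaturase Fads2 (1.76-fold) and the elongase Elovl1 (1.46-fold). Those falls numbered 2 without any single wildtype array and 3, 3 and 2 without Bmp15-/- arrays 1, 2 and 3.

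Immediate early transcription factors, which cells switch on within minutes of a stimulus, were higher. Of 32 tested, 11 rose (34.4%, where 3.29% of all genes tested rose) and 0 fell. The other 21 missed the threshold, and the median over the list was 0.81. The wildtype arrays scattered widely, with array medians of 0.25, -0.47 and 0.11 relative to the wildtype mean, and the Bmp15-/- arrays lay at 0.88, 0.86 and 0.78. Wildtype array 2, the array with most oocyte RNA, was thus the lowest. Rises numbered 13, 6 and 6 without wildtype arrays 1, 2 and 3, 4 each without Bmp15-/- arrays 1, 2 and 3, and 2 without array 2 of both, where the median was 0.51. Besides Klf9 the stable rises were Fosl2, a FOS family member (2.48-fold), Egr3 (8.17-fold) and the small MAF protein Mafk (1.85-fold). Fosl2 had 11.54, 10.82 and 11.46 in wildtype and 12.56, 12.62 and 12.56 in Bmp15-/-. Egr3, an early growth response factor, had 6.43, 4.33 and 5.09 against 8.48, 7.96 and 8.51, and another tested probe set of the gene had a change of the opposite sign that was not called. Nr4a3, an orphan nuclear receptor, had 5.26, 4.51 and 6.98 against 9.08, 8.74 and 9.51 and rose 11.5-fold, with adjusted p up to 0.0837 without Bmp15-/- array 3. The prototypes did not pass: Fos had 13.73, 13.32 and 13.68 against 13.90, 13.89 and 13.83 (adjusted p = 0.128), and Egr1 had 13.98, 13.76 and 13.95 against 14.07, 14.13 and 14.04 (adjusted p = 0.229). The promoter of Nr4a3 (RefSeq, GRCm38.p6, 5′ to 3′ on the gene's strand) is shown for its matches to TGACG, the core that CREB binds downstream of cAMP, in capitals on either strand.
Nr4a3, chr4:48045055-48045304, plus strand: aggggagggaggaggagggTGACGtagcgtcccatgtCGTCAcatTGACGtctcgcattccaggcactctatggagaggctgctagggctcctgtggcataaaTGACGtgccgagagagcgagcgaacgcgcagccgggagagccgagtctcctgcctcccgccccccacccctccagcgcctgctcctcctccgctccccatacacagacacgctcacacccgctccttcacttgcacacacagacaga
It held 4 matches, and the window of Atf3, a member of the same list whose sequence is not shown, held 1. The core was found in the windows of 29.3% of all tested genes with a window, of 19 of 26 tested immediate early genes and of 8 of the 10 that rose and have one.

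Feedback and expansion genes held further rises. Of 13 feedback regulators of the MAP kinases 5 rose (38.5%, where 3.29% of all genes rose) and 0 fell. They were led by the phosphatase Dusp8, which had 6.48, 6.42 and 6.80 in wildtype and 7.96, 7.57 and 7.55 in Bmp15-/-. It rose 2.18-fold (adjusted p = 0.00419). The ERK phosphatase Dusp6 rose 3.51-fold from 8.63, 6.86 and 8.35 to 10.04, 9.60 and 9.63, with adjusted p up to 0.0755 without Bmp15-/- array 3. That list's rises numbered 2, 2 and 5 without wildtype arrays 1, 2 and 3 and 1, 3 and 1 without Bmp15-/- arrays 1, 2 and 3. Without array 2 of both genotypes 0 remained, and the list median went from 0.61 to 0.37. Of 12 genes of cumulus expansion, prostaglandins and the EGF family 4 rose (33.3%) and 1 fell (8.33%), where 3.29% and 5.78% of all genes did. Rises on this list numbered 3, 2 and 3 without wildtype arrays 1, 2 and 3 and 2, 3 and 1 without Bmp15-/- arrays 1, 2 and 3. Here too 0 remained without array 2 of both, where the median was 0.10. Wildtype array 2 was the lowest wildtype array on both lists, with medians of -0.14 for feedback and -0.28 for expansion relative to the wildtype mean. Ptger4, a prostaglandin E2 receptor, had 5.49, 4.74 and 6.56 against 8.31, 7.93 and 7.31 and rose 4.76-fold (adjusted p = 0.0128). The prostaglandin synthase Ptgs2 rose 4.27-fold (adjusted p up to 0.0735 without wildtype array 2) and the protease Adamts1 2.48-fold (up to 0.0526 without Bmp15-/- array 3). Has2, which makes the hyaluronan of the expanding matrix, had 6.43, 6.20 and 5.65 against 6.14, 6.48 and 5.41 and did not pass (adjusted p = 0.891). The EGF receptor Egfr moved the other way, from 10.84, 10.78 and 10.76 to 9.99, 9.95 and 9.86, a fall of 1.81-fold with separate groups (adjusted p = 0.00159). Other tested probe sets of Egfr had changes of -0.92, -0.43, 0.15 and 0.04, of which those of opposite sign were not called. With limma 0 of 13 heat shock genes and 0 of 15 apoptosis genes passed.

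Genes of communication with the oocyte and of steroid output changed one by one. Kitl, the kit ligand that cumulus cells present to the oocyte, had 9.50, 9.68 and 9.63 in wildtype and 8.22, 7.93 and 8.06 in Bmp15-/- and fell 2.90-fold, with adjusted p up to 0.0525 without wildtype array 2. Gucy1a1, a subunit of the soluble guanylate cyclase that nitric oxide activates, had 9.78, 9.71 and 9.61 against 8.28, 6.68 and 7.53 and fell 4.60-fold (adjusted p = 0.00593). Another tested probe set of the gene had a change of the opposite sign that was not called. Npr2, the guanylate cyclase receptor whose cGMP keeps the oocyte in arrest, fell 1.40-fold, with adjusted p up to 0.0517 without wildtype array 2. Hsd3b1, an enzyme of progesterone synthesis, had 12.30, 12.14 and 12.51 against 13.29, 13.25 and 13.37 and rose 1.98-fold (adjusted p = 0.0036). Nr0b1 (DAX1), a repressor of steroidogenic genes, rose 2.65-fold from 4.89, 5.43 and 5.37 to 6.38, 6.49 and 7.05, and Gata4, an activator of them, fell 1.72-fold. The insulin receptor Insr rose 1.61-fold. The IGF carrier Igfbp1 fell 3.28-fold, with adjusted p up to 0.0602 without wildtype array 1, so it and Igfbp5 were on opposite sides.

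Guidance, WNT, FGF and retinoid genes held falls and rises. Sema4d, a semaphorin that acts on plexin B receptors, had 11.23, 11.06 and 11.16 in wildtype and 9.68, 9.58 and 9.69 in Bmp15-/- and fell 2.83-fold (adjusted p = 0.000153). Sema3a fell 3.61-fold and Sema3g 1.93-fold, while Sema3c rose 1.58-fold from 11.13, 11.13 and 11.22 to 11.88, 11.79 and 11.78. In all, 8 of 36 guidance and reelin genes fell (22.2%) and 2 rose (5.56%), where 5.78% and 3.29% of all genes did. The falls numbered 4, 5 and 4 without wildtype arrays 1, 2 and 3 and 7, 6 and 4 without Bmp15-/- arrays 1, 2 and 3. Crabp2, which carries retinoic acid to its nuclear receptor, had 11.61, 11.70 and 11.62 against 10.16, 9.93 and 9.70 and fell 3.28-fold (adjusted p = 0.00117). The aldehyde oxidase Aox4 fell 4.66-fold, from 9.64, 10.12 and 9.16 to 7.45, 7.72 and 7.09. The WNT receptor Fzd1 fell 2.55-fold, and the FGF receptor Fgfr2 fell 1.88-fold from 11.30, 11.21 and 11.29 to 10.65, 10.30 and 10.12. Flrt3, a membrane protein that modulates FGF signalling, rose 2.23-fold. The endothelin receptor Ednrb fell 2.59-fold, with adjusted p up to 0.0539 without wildtype array 2.

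Zinc finger proteins named Zfp, most of which are DNA-binding repressors that lie in clusters of related copies, showed mostly lower calls. Of 280 tested, 44 fell and 6 rose, 17.9% called against 9.07% over all genes. The median change was small, -0.15, and the median fall was 1.66-fold. On chromosome 17, 14 of 37 tested Zfp genes fell and 2 rose, whereas 35 of the 605 other tested genes there fell (5.79%). Outside that chromosome 30 of 243 fell (12.3%), with shares that differed between chromosomes. On chromosome 5, 5 of 15 Zfp genes fell (33.3%), and on chromosome 8, 5 of 21 (23.8%). On chromosome 7, which held the most, 7 of 68 fell (10.3%). Zfp53 had 6.41, 5.99 and 6.28 in wildtype and 4.01, 4.29 and 4.54 in Bmp15-/- and fell 3.85-fold (adjusted p = 0.00971), with all 3 Bmp15-/- arrays under the 40th percentile. Zfp563 had 6.53, 6.54 and 6.43 against 5.41, 4.89 and 4.89 and fell 2.70-fold (adjusted p = 0.00078). Zfp51 fell 1.90-fold and Zfp472 2.04-fold, and these 4 genes are all on chromosome 17. Related copies can share probes, and how far that couples these values was not tested. The count rested strongly on single arrays: the falls numbered 21, 12 and 20 without wildtype arrays 1, 2 and 3, 31, 17 and 15 without Bmp15-/- arrays 1, 2 and 3, and 3 without array 2 of both, with a median of -0.17. After quantile normalization 31 fell and 9 rose.

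Ion channel genes leaned upward, with 12 of 128 tested higher (9.38%) and 3 lower (2.34%), where 3.29% and 5.78% of all genes were. Kcnab1, a regulatory subunit of potassium channels, had 6.16, 6.12 and 6.11 in wildtype and 8.69, 8.54 and 9.40 in Bmp15-/- and rose 6.71-fold (adjusted p = 0.000219). Gabrb2, a subunit of the GABA receptor, had 6.33, 6.33 and 5.79 against 8.24, 8.44 and 8.53 and rose 4.77-fold. The potassium channel Kcnd3 rose 2.81-fold and the glycine receptor subunit Glrb 1.76-fold, while the calcium-activated potassium channel Kcnma1 fell 1.96-fold. The rises numbered 8, 5 and 6 without wildtype arrays 1, 2 and 3 and 8, 6 and 4 without Bmp15-/- arrays 1, 2 and 3. Of 239 solute carriers 11 rose (4.60%) and 18 fell (7.53%), near the 3.29% and 5.78% of all genes. Among these carriers the iron exporter Slc40a1 rose 1.96-fold and the taurine transporter Slc6a6 fell 1.55-fold. The rises on that list numbered 4 to 9 and its falls 3 to 15 with 1 of the 6 arrays left out. The falls were fewest without Bmp15-/- array 3 and the rises without wildtype array 2. The kinase gene Prkca, protein kinase C alpha, had 7.96, 7.63 and 7.61 against 6.10, 6.45 and 6.07 and fell 2.88-fold. Of 45 cytosolic ribosomal protein genes 0 passed with limma, with a median of 0.02. Of 73 mitochondrial ones 4 fell (5.48%), near the 5.78% of all genes that fell, with a median of -0.19. The 4 became 2 without Bmp15-/- array 1 and 0 without any other of the 6 arrays. Of 27 DNA replication genes 3 fell (11.1%) and of 24 mitosis genes 2 fell (8.33%), where 5.78% of all genes fell, with medians of -0.29 and -0.26. The licensing factor Cdc6 fell 2.01-fold from 7.94, 8.46 and 7.92 to 7.29, 7.09 and 6.91, and the mitotic kinesin Kif20a 1.45-fold.

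**Figure D4:**
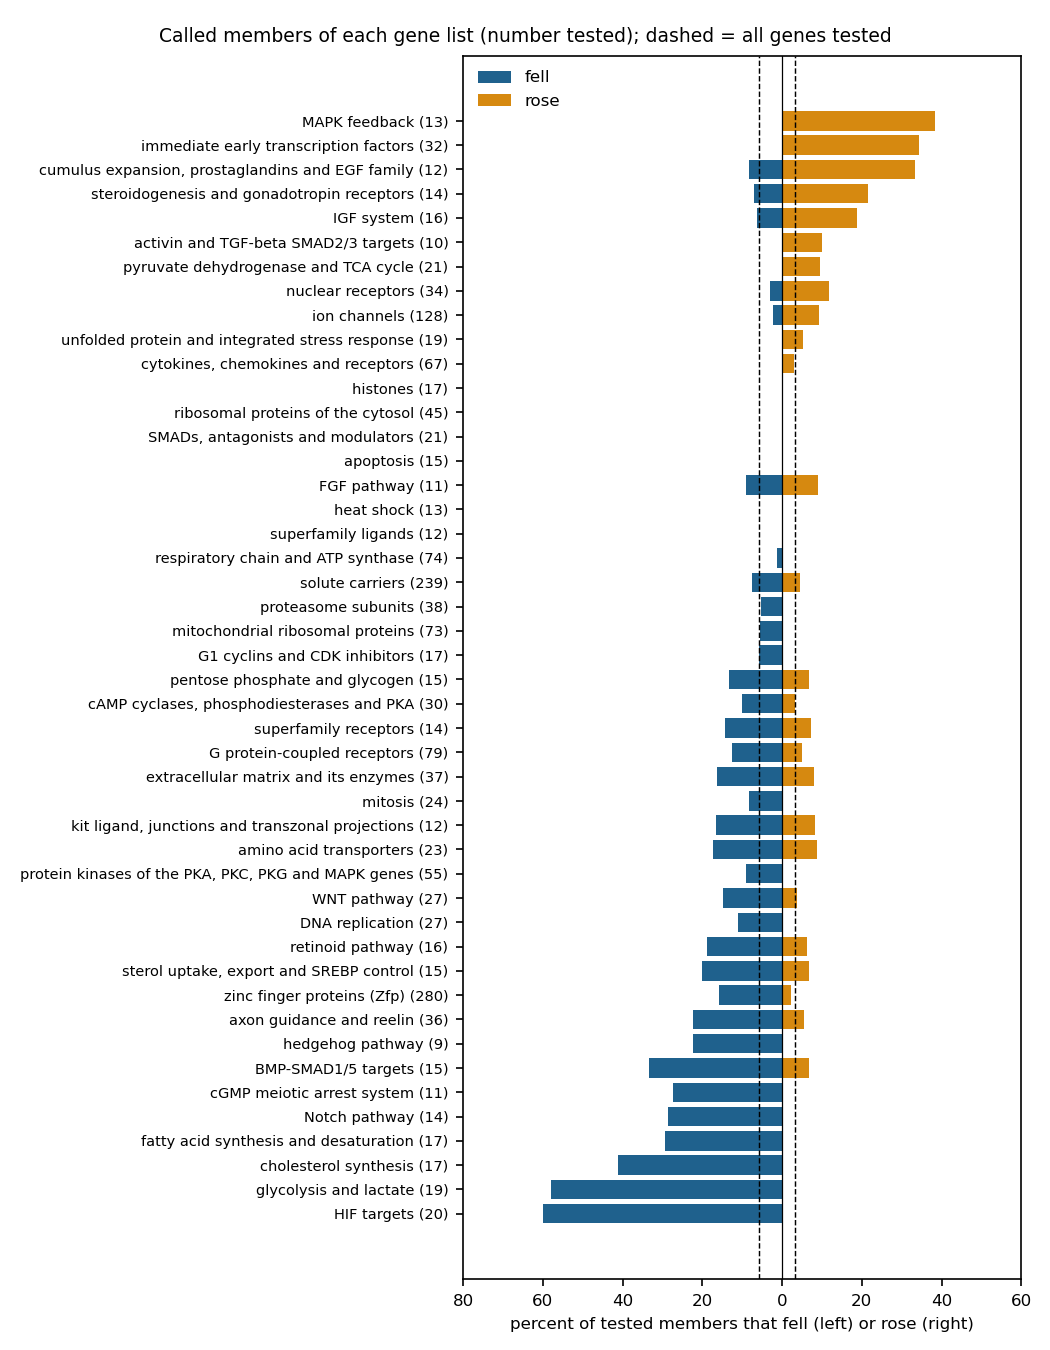
For each pathway list and gene family with at least 8 tested members (number tested in brackets) the bars give the percentage of members that fell (blue, to the left) or rose (orange, to the right). The dashed lines mark the shares over all genes tested, 5.78% lower and 3.29% higher, and HIF targets (12 of 20 lower) and MAPK feedback genes (38.5% higher) are at the ends.

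Markers of other cell types showed scattered changes. For comparison, 3.29% of all genes tested rose and 5.78% fell, and for 36.8% of them the 2 groups did not overlap. Of 17 oocyte markers 1 fell, Tle6 (1.57-fold, adjusted p up to 0.0584 without Bmp15-/- array 3), and the summed marker level spanned 9.89 to 11.3 in wildtype and 9.64 to 11.3 in Bmp15-/-. Of 8 stroma and smooth muscle markers Pdgfra rose 1.90-fold (up to 0.0709 without wildtype array 3) and Pdgfrb fell 1.34-fold (up to 0.139 without wildtype array 2), with summed levels of 11.1 to 11.4 and 11.3 to 11.5. Of 8 surface epithelium markers 1 rose, the keratin Krt8 (1.53-fold, up to 0.0966 without wildtype array 3). Their summed level was 10.2 to 10.5 in wildtype and 10.8 to 11.2 in Bmp15-/-, without overlap. Of 5 mural granulosa markers 1 passed, Kitl, which fell. Their summed level was 11.4 to 11.5 in wildtype and 11.1 on each Bmp15-/- array, without overlap. That sum includes Kitl, and the median change over the 5 markers was -0.03. With limma 0 of 3 theca, 0 of 2 endothelial and 0 of 3 immune markers passed. The endothelial sum was 6.07 to 6.16 in wildtype and 6.20 to 6.33 in Bmp15-/-, also without overlap. It rests on 2 dim genes, with array medians of 5.06 to 5.16 in wildtype and 5.20 to 5.33 in Bmp15-/-. The 40th percentile of the arrays was close to these, at 4.99 to 5.02 in wildtype and 5.03 to 5.04 in Bmp15-/-. Of 2 erythroid markers 1, Alas2, fell, from 7.28, 8.14 and 7.51 to 6.31, 5.63 and 5.04. The erythroid sum was 7.66 to 8.35 in wildtype and 6.25 to 7.15 in Bmp15-/-, again without overlap. The part of other cells in the results was not tested. In such bulk samples a lower level per cell and fewer cells of a type cannot be told apart.

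The DM arrays, which share the wildtype controls and differed from them in 28.1% of genes, were set beside Bmp15-/- gene by gene. Over the 777 genes that fell the median change was -0.63 in Bmp15-/- and -0.71 in DM, and over the 442 that rose it was 0.69 and 0.84. Tested directly, DM differed from Bmp15-/- in 3.25% of all genes. Among the falls 82 were still lower in DM, 29 were higher and 666 did not pass, and among the rises 52 were still higher, 7 were lower and 383 did not pass. Cox4i2 went further, to 5.39, 6.03 and 5.52 in DM (adjusted p = 0.0034 against Bmp15-/-), and so did Egfr, to 8.43, 8.74 and 8.49 (adjusted p = 0.00076). Id3 had 9.34, 9.58 and 9.14 in DM and did not pass against Bmp15-/- (adjusted p = 0.144).

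For 36 of the 1219 called genes the DM arrays moved back, 29 that had fallen and 7 that had risen. Over all genes tested DM differed from Bmp15-/- in 3.25%, in either direction. Of the 36 genes 30 did not pass against wildtype in DM. The call and the move back both use the same Bmp15-/- arrays, so scatter there enters both, and its part was not tested. Cadps, which primes secretory vesicles for release, had wildtype values of 7.32, 7.36 and 7.47, Bmp15-/- values of 5.64, 4.08 and 4.29 and DM values of 9.00, 9.62 and 9.10. It thus fell 6.55-fold with BMP15 lost but lay above wildtype in DM (adjusted p = 0.0044 against wildtype). On Bmp15-/- arrays 2 and 3 it lay under the 40th percentile, so the size of that fall rests on dim values. Galc had 8.28, 8.49 and 8.70, then 6.64, 6.20 and 6.74, then 8.14, 8.60 and 8.28, and did not pass in DM against wildtype (adjusted p = 0.568). Gucy1a1 returned to 9.57, 8.99 and 9.55. Among these genes, as chosen after their values were seen, were also Gatm, the first enzyme of creatine synthesis, and the RAS-like Rerg. The 36 include 7 Zfp genes, all of them among the 29 that had fallen. Zfp genes made up 280 of the 13447 genes tested and 44 of the 777 that fell. Dab1, the adaptor of the reelin receptors, had the largest difference of all named genes, from 8.61, 8.40 and 8.46 in wildtype to 3.96, 3.91 and 4.16 in Bmp15-/-, a 22.3-fold fall. In DM its arrays spanned the whole range, at 8.81, 4.10 and 6.31, and this spread enters the shared error of the fit. Its adjusted p of 0.0168 went up to 0.0586 without wildtype array 2, and 5 of the 6 left-out arrays cost it the call. All 3 Bmp15-/- values of Dab1 lay under the 40th percentile, so the size of its fold rests on dim values. Its other tested probe sets had smaller changes of -0.43, -1.36 and -2.88.

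**Figure D5:**
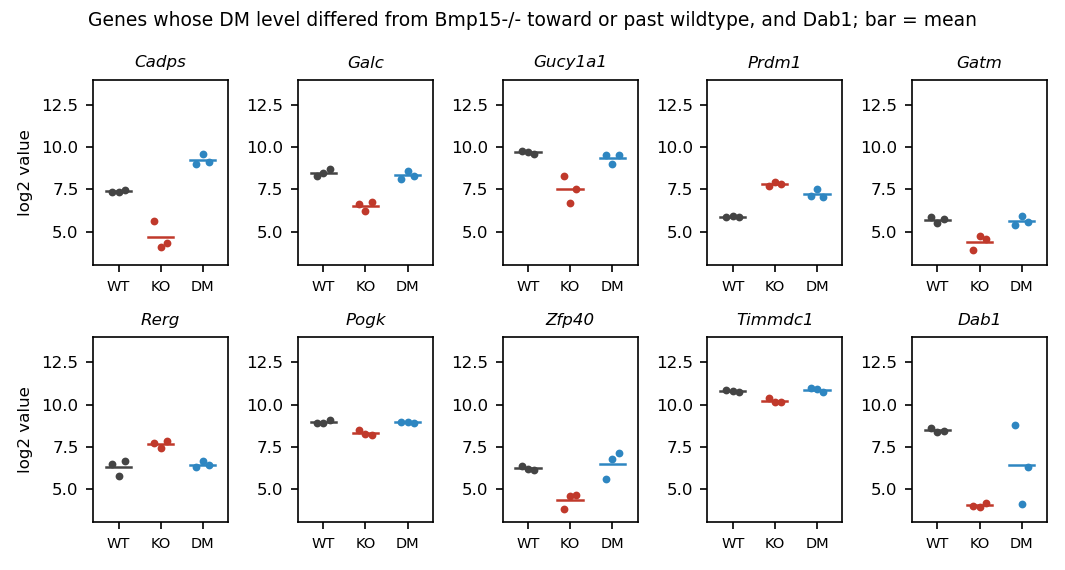
The log2 expression value on every array (points) and the mean (bar) are plotted for 9 genes whose DM level differed from Bmp15-/- back toward or past wildtype, and for Dab1, in wildtype (WT), Bmp15-/- (KO) and DM (n = 3 each). Cadps lay at 9.00 to 9.62 in DM against 7.32 to 7.47 in wildtype, and the Dab1 values in DM ran from 4.10 to 8.81.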

How the data were processed

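RNA of pooled cumulus cells was measured on 9 Affymetrix mouse arrays, 3 per genotype. The values used are the authors' deposited log2 expression values, made with RMA in the affy package per the submitters' processing notes, with versions and settings not given in the sources used here. Probe sets were named from the platform annotation: 34958 name 1 gene, 932 name several and 9211 are unnamed here. Each gene was taken through its probe set with the highest mean, and was left out as dim unless its value lay above the array's own 40th percentile on 3 or more arrays.

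Genotypes were compared with limma 3.58.1 (lmFit and eBayes, R 4.3.3) over all 9 arrays with genotype as the only term and 6 residual degrees of freedom, and p-values were adjusted by Benjamini-Hochberg over 13447 genes. The procedure was tested on simulated data. P-values measure the spread between pools of animals, and 3 arrays per group limit the precision. Named genes were the 25 largest stable rises and falls, the 12 smallest p-values, the 8 with the highest mean each way, and up to 6 called members per list, besides superfamily members, Bmp15, Gdf9 and called markers of other cell types. Members of lists that did not pass are named as examples. The members and lists were chosen with earlier results of these data known. Alternatives covered the filter, probe set choice, normalization, a floor, the arrays fitted, array weights, trend, a replicate block and each array left out. The labels give no pairing by replicate number, and the main fit used none. Promoter windows came from RefSeq's GRCm38.p6, and figures were drawn with matplotlib 3.10.9.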

Additional observations from a re-analysis of the deposited data

How the results depend on the processing

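The 1219 calls became 1894 (1289 lower) with only the 6 compared arrays fitted and 2350 (784 higher, 1566 lower) with array weights. Leaving out 1 array gave 445 to 1663 calls, 152 to 546 higher and 293 to 1117 lower, and leaving out array 2 of both genotypes gave 166, 67 higher and 99 lower. The other settings kept the count within 1.5 times: 1128 with no filter, 1298 with a 60th percentile filter, 1312 with the mean of tested probe sets, 1110 with quantile normalization, 1234 with a floor and 1327 with a trend. Causes were not tested. Of 199 named called genes 118 were called without each of the 6 arrays, 81 lost the call at least once and 0 changed sign. With the mean of its tested probe sets Mcm6 turned from lower to higher, at 0.061. It was not stable, with limma's adjusted p up to 0.0819 without wildtype array 2. Quantile normalization moved the median of all genes from -0.04 to 0.01, a shift of 0.05. With the replicate block 1084 genes were called. Same-numbered wildtype and Bmp15-/- samples correlated at 0.07, 0.26 and 0.07 in their deviations. Some samples, but not all, correlated best with their own number. The labels state no pairing, and whether the numbers mark samples handled together was not tested. Dim probe sets limit the size of falls such as those of Lox, Oprl1, Zfp53, Cadps and Dab1.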

Other observations

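Genes beside Bmp15 on the X chromosome were checked, since a targeted allele carries its flanking segment. Of 28 tested neighbours, 3 before and 25 after the gene, 1 rose and 0 fell in limma's test (3.57% called, where 9.07% of all genes were). The gene that rose was Pim2, a serine/threonine kinase of cell survival (1.45-fold, adjusted p = 0.0493). It was not stable: the call was lost without any 1 of the 6 arrays, with adjusted p up to 0.143. Probe sets without a listed gene gave few calls when tested by themselves: of 3584, 27 were higher and 32 lower, or 1.65%. Promoter windows were also searched for GGCGCC, a GC-rich box of SMAD1 and SMAD5. The window of Id3 held 0 matches, and 0 of 2 BMP and SMAD1/5 targets that fell and have a window held it. It was found in 4 of 9 such targets tested and in 18.8% of all tested genes with a window.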
